A study of Caenorhabditis elegans with 2 samples.

Results

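The peaks of the chromatin remodeller CHD-3 on chromosome II were described from the list that the authors deposited for their ChIP-seq sample. All listed peaks whose chromosome is II were taken, which gave 671 of the 4940 peaks of the list. The series holds 2 samples, 1 CHD-3 immunoprecipitate and 1 input DNA library, and both were made from fem-2(b245)III hermaphrodites kept at 20 °C, so the allele is shared by the ChIP sample and its input. The labels give the stage as young adults that contain a germline, whereas the growth protocol describes gravid adults. CHD-3 was recovered from whole-animal extract with an affinity-purified rabbit polyclonal antibody, and germline and somatic chromatin are mixed in the sample. The peak list belongs to the ChIP sample. It has no replicate here, its read depth is unknown, and no input signal was set beside it, so parts of 1 list were compared by description and nothing was tested.

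CHD-3 is a C. elegans counterpart of Mi-2, the ATPase of the NuRD complex, which slides nucleosomes and carries histone deacetylases. The worm has a close relative of it, LET-418. fem-2 encodes a protein phosphatase needed for male development and for sperm, and b245 is a temperature-sensitive allele. Worm chromosomes have no single centromere, and attach to the spindle along their whole length. Their autosomes are divided into gene-dense centres with little recombination and arms that recombine more and hold more repeats, and chromosome II has this layout.

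Chromosome II carried few CHD-3 peaks for its size, and those it carried were on the wide and high-scoring side. Its 671 peaks made 44.2 per Mb of span (95% exact binomial interval of the count among autosomal peaks, 41.1 to 47.3), against 52.05 per Mb over the other 4 autosomes together. Among the 5 autosomes only V was sparser, at 41.04 per Mb (38.6 to 43.6), and the intervals of II and V overlapped. Those of I at 52.9, III at 56.1 and IV at 61.3 peaks per Mb lay above that of II. Chromosome II had 16.1% of the autosomal peaks on 18.4% of the autosomal span, and 17.1% of the bases inside autosomal peaks. Peaks covered 370.3 kb of it, or 2.44% of its span, against 2.68% over the other 4 autosomes. Every interval given here reflects counting error alone and takes each peak as independent of the next, which neighbours are not.

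The median CHD-3 peak on II was 355 bp wide (95% interval of the median from binomial order statistics, 329 to 374), against 321 bp (314 to 328) on the other 4 autosomes. This was the highest median of the 5 autosomes. Next came V at 330 bp (314 to 349) and III at 326 bp (313 to 341), whose intervals overlapped that of II, then IV at 314.5 bp (300.0 to 330), whose interval reached that of II by 1 bp, and I at 314 bp (302 to 327), whose interval lay below it. With neighbours under 500 bp apart joined, the median was 399 bp on II and 385 bp on the other 4 autosomes, and II was in the second place of the 5. The middle 50% of the widths on II ran from 245.5 to 614 bp, and the extremes were 116 and 8954 bp.

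The surplus lay in peaks of intermediate width. On II 152 peaks, or 22.7%, measured 500 to 999 bp (95% exact interval 19.5 to 26.01%), against 17.3 to 19.6% on each of the other autosomes. A further 60 peaks, or 8.94% (6.89 to 11.4%), measured 1000 to 1999 bp, against 5.97 to 7.35%. Peaks under 250 bp made up 25.8% of II (22.5 to 29.3%), against 29.9 to 32.6% elsewhere, and only the interval of IV (29.8 to 35.5%) lay above that of II. The widest class showed no such difference, since 16 peaks of II, or 2.38%, reached 2000 bp, against 2.24 to 2.98% on the other autosomes. Counting all peaks of 1000 bp or more, II had 76, or 11.3% of its peaks (9.03 to 13.97%). Over all autosomal peaks this share was 9.4%, inside the interval of II, and over the other 4 autosomes it was 9.03%, at its lower edge. These 76 peaks held 37.2% of the covered length of II.

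**Figure D1:**
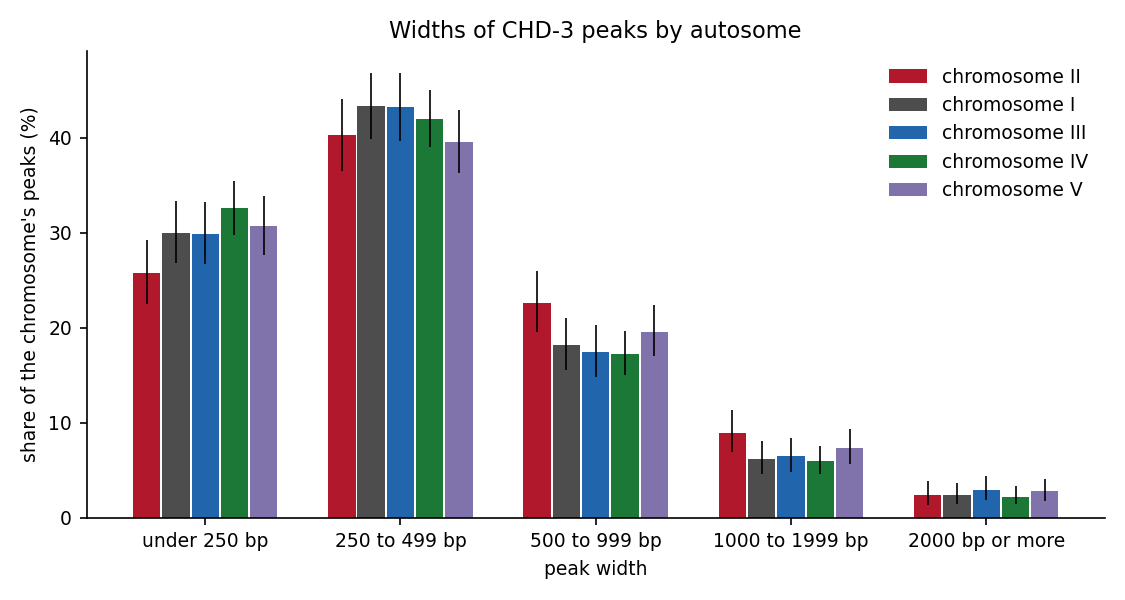
Share of each autosome's CHD-3 peaks (vertical axis, %) in 5 classes of peak width (horizontal axis), with chromosome II in red and bars for I, III, IV and V to its right; error bars are 95% exact binomial intervals. Chromosome II has the tallest bars at 500 to 999 bp (22.7%) and 1000 to 1999 bp (8.94%) and the shortest under 250 bp (25.8%). Its intervals overlap those of every other autosome in each class, except that of IV under 250 bp.

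The deposited score, a number per peak whose scale the file does not name, followed the widths. Its median on II was 128.28 (113.49 to 143.93), against 114.16 (110.22 to 118.36) on the other 4 autosomes, and the other single autosomes ran from 112.5 on IV to 115.54 on V. The intervals of III, IV, V and I all overlapped that of II. Of the peaks on II, 199 or 29.7% (26.2 to 33.3%) lay in the top 25% of scores of the whole list, where 24.8% of all autosomal peaks did. The other autosomes had 22.8% on III, 23.1% on I, 23.97% on IV and 25.4% on V. The lowest 25% of scores held 23.99% of II and 25.5% of the other 4 autosomes. Scores of 3100 or more were held by 11 peaks of II, or 1.64% of its peaks (0.821 to 2.91%), against 2.89% on I, 1.94% on III, 1.40% on IV and 2.80% on V. The value 3100 was shared by 111 peaks of the list and exceeded by 2, of which 1 lies on II. What this tie marks on the unnamed scale is not known.

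Across the peaks of II, score and width rose together, with a Spearman's rho of 0.89 over 671 peaks, which share 1 library and a caller that sets both numbers. The median score was 59.2 for peaks under 250 bp, 110.28 at 250 to 499 bp, 293.4 at 500 to 999 bp, 634.6 at 1000 to 1999 bp and 2788 at 2000 bp or more. A few narrow peaks stood off this relation. Limits set after the values were seen, a width under 500 bp and a score of 400 or more, picked out 9 peaks of II, or 1.34% (0.615 to 2.53%), against 1.40 to 2.01% on the other autosomes. The first peak of the chromosome, from base 1 to 455, had the highest score of the 9, at 1598.16. A peak of 252 bp from 3290553 to 3290804 in the left arm scored 972.67, and one of 302 bp from 3994606 to 3994907 scored 793.32. The narrowest of the 9 was 148 bp wide, from 2716896 to 2717043, with a score of 495.46.

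**Figure D2:**
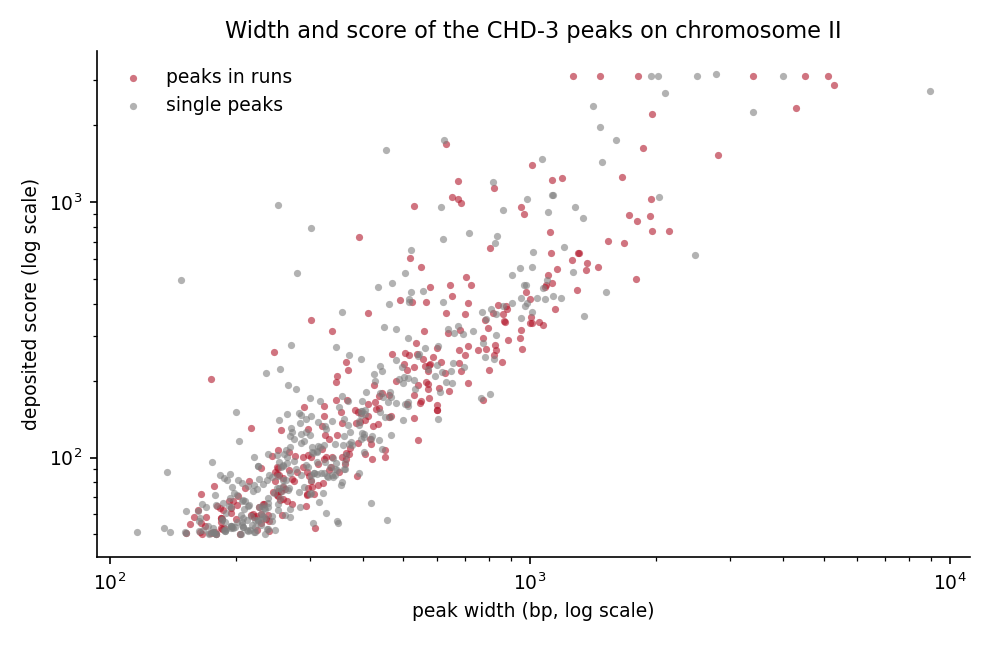
Deposited score (vertical log axis, scale not named) against width in bp (horizontal log axis) for the 671 CHD-3 peaks of chromosome II, with peaks in runs in red and single peaks in grey. Both rise together (Spearman's rho 0.89), a row of points is tied at 3100 with 1 point above it at 3174.44, and a handful of narrow peaks lies above the band.

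The peaks of highest score on II lay in the centre and the right arm. Arms are taken here as the outer 25% of the span on each side, so that the left arm ends at base 3798547 and the right arm begins at base 11395643. The 10 highest comprised 1 peak at 3174.44, from 14835487 to 14838256 (2770 bp), and the 9 widest of those tied at 3100. The central ones lay at 4553871 to 4555886 (2016 bp), 4641160 to 4645170 (4011 bp), 5144977 to 5146788 (1812 bp), 8288325 to 8292838 (4514 bp), 9631723 to 9633193 (1471 bp) and 10547862 to 10552984 (5123 bp). The right-arm ones lay at 12843654 to 12846157 (2504 bp), 14337320 to 14339256 (1937 bp) and 15137702 to 15141096 (3395 bp). None of the 11 peaks at or above 3100 lay in the left arm, where the highest score was 2716.65. The exact interval of this share, 0 of 169 peaks, reached 2.16%. It included the 1.90% of the centre of II and the 1.74% of the left arms of the other autosomes. The right arm of II had 2.69% (0.878 to 6.16%), and these intervals overlapped. The right arm of III, with 237 peaks, also had none at or above 3100. Of the 11 peaks 6 belonged to runs of peaks less than 500 bp apart and 5 did not. The widths of the 11 ran from 1265 to 5123 bp. Of those 5, the peak at 14337320 was only 642 bp from its left neighbour.

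The widest peak of II, from 3159605 to 3168558, spanned 8954 bp with a score of 2716.65, and it was the only peak of the left arm above 5000 bp. It stood alone, 60.3 kb from its left and 8.59 kb from its right neighbour. The next 4 in width were all central. They were 9814419 to 9819723 (5305 bp, score 2859.72), 10547862 to 10552984 (5123 bp), 8288325 to 8292838 (4514 bp) and 9807934 to 9812231 (4298 bp, score 2324.89). The left arm's other high scorers were 1034512 to 1036459, at 2213.79, and 694230 to 696090, at 1633.37.

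Counts of peaks in 500 kb bins varied less along chromosome II than along III, IV and V. In full bins of 500 kb the median count was 20, and the 30 bins ran from 8 to 37 peaks. The variance of the counts was 2.02 times their mean, against 1.57 on I, 5.50 on III, 5.00 on IV and 5.46 on V. The fullest bins of III, IV and V held 63, 62 and 69 peaks, and no bin of II came near these. The coefficient of variation was 0.305 on II, against 0.243 on I, 0.404 on IV, 0.449 on III and 0.516 on V. In windows of 100 kb this order changed, with 0.746 on II, above 0.620 on I and 0.716 on IV and below 0.882 on III and 0.927 on V. The fullest such window of II held 17 peaks, against 19 on I, 26 on IV, 33 on III and 35 on V. Of the 151 full windows on II 7 were without a peak, or 4.64%, against 2.92% on III, 4.02% on IV, 5.33% on I and 9.62% on V.

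The fullest bins of II lay near its right end, at 14000001 to 14500000 with 37 peaks and at 13500001 to 14000000 with 34. The third was central, at 9500001 to 10000000, with 33 peaks. It had the most sequence inside peaks, at 27.3 kb, where the median bin had 10.3 kb. Of its peaks 7 were 1000 bp or wider. The emptiest bin, at 4500001 to 5000000, had 8 peaks, yet their median score of 335.4 was the highest of any bin of II. It held a pair of peaks scored 3100, at 4553871 and 4641160, and all of the second longest empty stretch of the chromosome. The next emptiest were 12000001 to 12500000 with 13 peaks and a median score of 92.9, and 4000001 to 4500000 and 12500001 to 13000000 with 14 each. The first of these was also lowest in covered sequence, with 3.63 kb inside peaks.

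**Figure D3:**
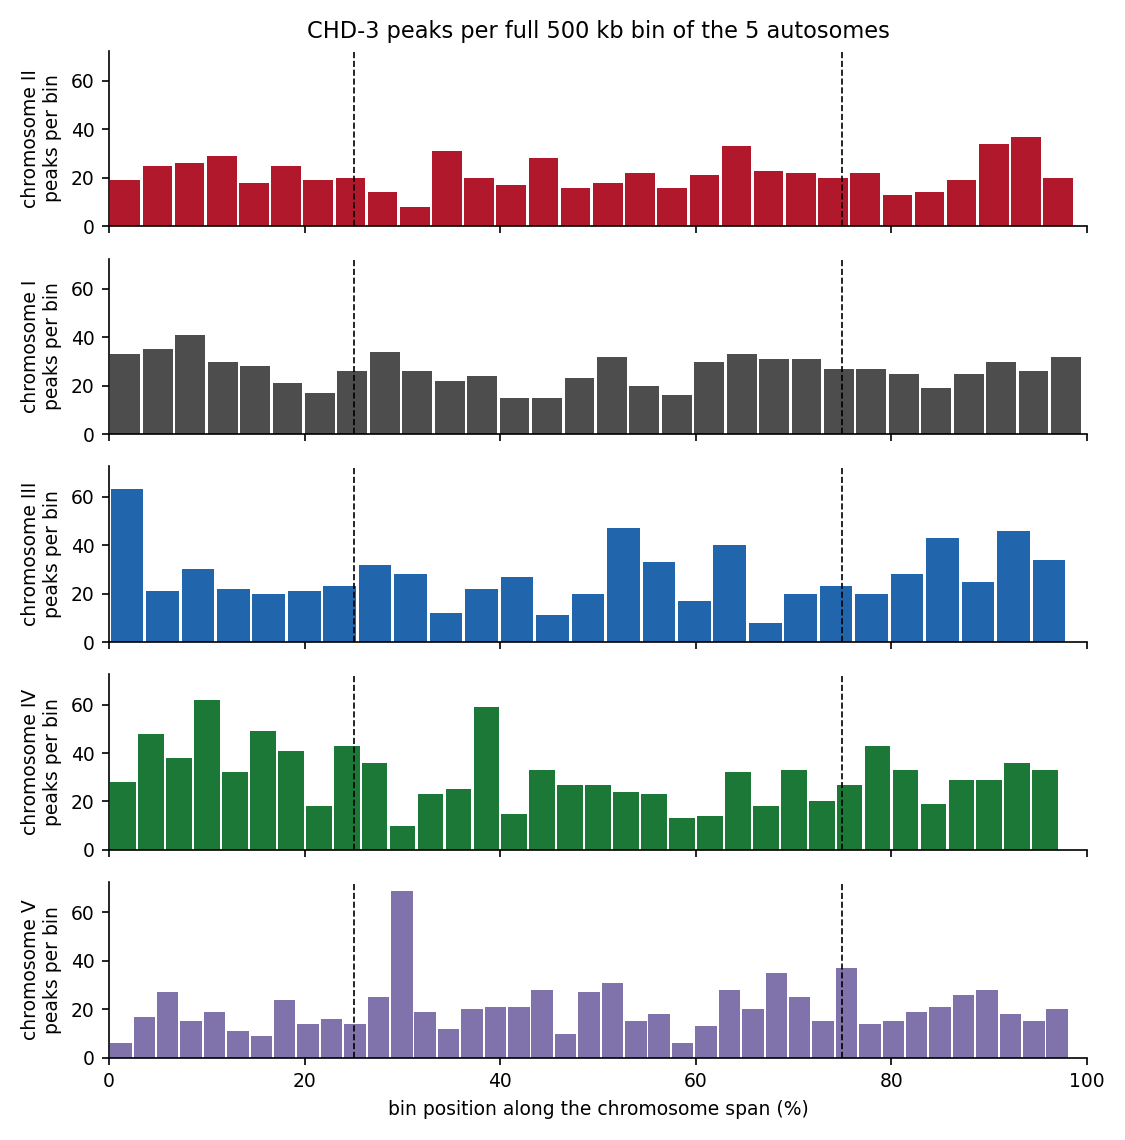
CHD-3 peaks per full 500 kb bin (vertical axis, number of peaks) by position along each autosome's span (horizontal axis, %), with chromosome II at the top and I, III, IV and V below; dashed lines mark the borders of the arms at 25% and 75%. The counts of II stay between 8 and 37, whereas III, IV and V each have at least 1 bin above 60.

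Left arm, centre and right arm of II carried peaks at similar densities. The left arm had 169 peaks at 44.5 per Mb, the centre 316 at 41.6 per Mb and the right arm 186 at 48.97 per Mb. The centre held 47.1% of the peaks (95% exact interval 43.3 to 50.95%), against 47.4% on the other 4 autosomes. The left arm held 25.2% (21.9 to 28.7%) against 26.3%, and the right arm 27.7% (24.4 to 31.3%) against 26.3%. Chromosome IV had 77.5 peaks per Mb in its left arm and V had 31.6, so the left arm of II lay between these. Peaks were also close together at the right end of the listed span of II. The last 200 kb, counted back from the end of the last peak, held 23 peaks, or 115 per Mb. The first 200 kb, counted from base 1, held 12 peaks, or 60 per Mb. A window that ends at a peak leaves out any sequence beyond it, so these ends are not measured alike. Without these end stretches the right arm had 45.3 peaks per Mb and the left arm 43.6. The last 200 kb held 33 peaks on III, 16 on I, 10 on V and 8 on IV.

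The left arm of II had wider and higher-scoring peaks than the left arms of the other autosomes. Its median width was 346 bp (301 to 392), against 281 bp (272 to 293) over the other left arms, which ran from 257 bp on III to 307 bp on V. The interval of II lay above those of III and IV and overlapped those of I and V. The median score of the left arm was 137.35 (103.96 to 192.06), against 103.41 (97.96 to 107.78), and these intervals overlapped. The other left arms ran from 89.5 on III to 110.94 on V, and only the interval of III (83.86 to 100.07) lay below that of II. Of the 169 peaks in the left arm of II 35.5% (28.3 to 43.2%) lay in the top 25% of scores of the list. Of the 920 peaks in the other left arms 18.2% (15.7 to 20.8%) did. By single left arm the share was 14.5% on IV, 16.8% on III, 19.5% on I and 25.5% (19.0 to 32.8%) on V. The interval of V overlapped that of II, and those of I, III and IV lay below it. Among the 50% of peaks with the highest scores the median score of the left arm was the second of the 5 autosomes. In the centre the medians were 369 bp and 136.04 on II, against 351.5 bp and 124.69 elsewhere, and the intervals overlapped. In the right arm they were 333 bp and 116.8 on II, against 308 bp and 113.74 elsewhere, again with overlapping intervals.

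The medians of width in left arm, centre and right arm of II spanned 36 bp, from 333 to 369 bp, and their intervals overlapped. The same span was 132.5 bp on III, 98 bp on V, 57 bp on IV and 47.5 bp on I. Centre minus left arm was 23 bp on II, against 47.5 to 132.5 bp on the other autosomes, and in score it was -1.31 on II, against 9.86 to 42.9. Centre minus right arm was 36 bp on II, against 18 bp on IV, 28 bp on I, 52.5 bp on III and 98 bp on V. In score it was 19.2 on II, against -0.97 on I, 1.54 on IV, 13.99 on III and 24.8 on V. The medians of score thus spanned 20.6 on II, more than the 10.8 on I and 14.3 on IV and less than the 24.8 on V and 42.9 on III. Broad peaks were still fewer in the left arm, with 13 or 7.69% (4.16 to 12.8%) of 1000 bp or more, against 40 or 12.7% (9.2 to 16.8%) in the centre and 23 or 12.4% (8.0 to 17.97%) in the right arm. These intervals overlapped. The left arm was also below the centre on I (6.82 and 10.03%), III (6.63 and 11.5%), IV (2.95 and 10.3%) and V (7.88 and 10.8%).

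**Figure D4:**
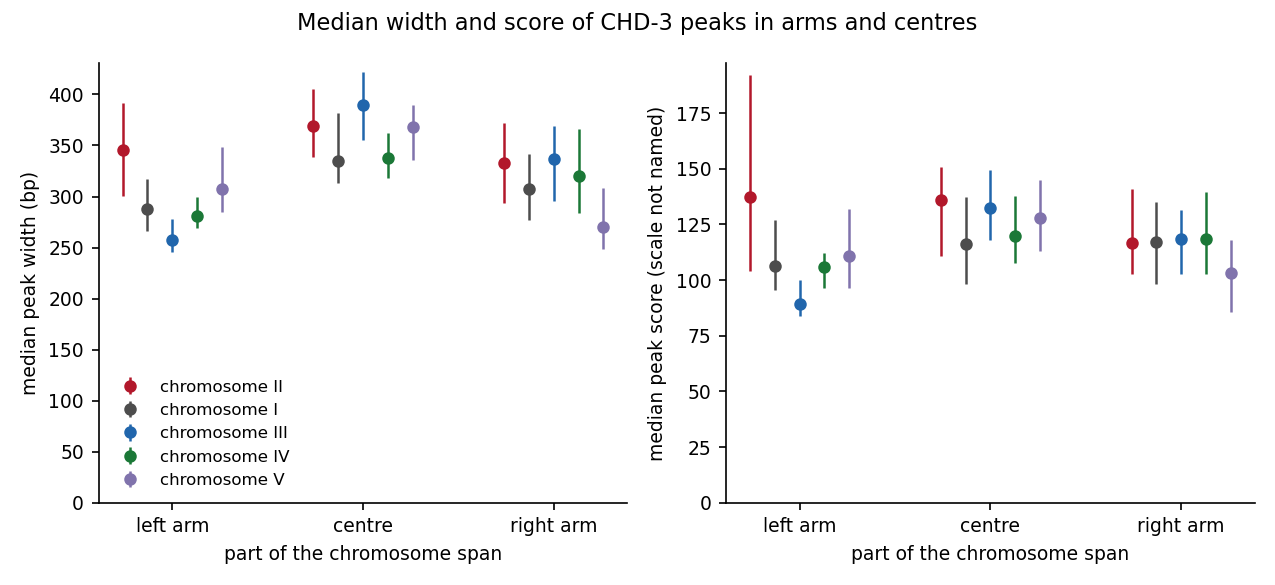
Median peak width in bp (left plot) and median deposited score (right plot, scale not named) in the left arm, centre and right arm of each autosome, with chromosome II in red at the left of each group and I, III, IV and V after it; error bars are 95% intervals of the median. In the left arm II has the highest medians, 346 bp and 137.35, and in the centre and right arm its intervals overlap those of all other autosomes.

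On chromosome II many peaks came in short runs. A run is a set of neighbouring peaks with less than 500 bp between each peak and the next. There were 112 runs with 291 peaks, or 43.4% of the peaks of II (39.6 to 47.2%), against 45.01% on the other 4 autosomes (43.4 to 46.7%). Chromosome I had 38.8%, V 44.6%, IV 45.9% and III 50.7%. Of the runs on II 70 were pairs, 27 had 3 peaks, 9 had 4, 3 had 5, 2 had 6 and 1 had 7. With this limit longer runs did not occur on II. Runs of more than 7 peaks numbered 2 on I, 5 on III, 7 on IV and 1 on V. The most peaks in a run were 7 on II, against 14 on I and IV, 20 on III and 31 on V. These counts depend on the limit. In the right arm, neighbouring peaks from 13817764 to 13829531 were 50 to 883 bp apart, so a limit of 1000 bp would join them all. Peaks per run were not compared between autosomes at that limit.

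Peaks inside the runs of II were wide. Their median was 426 bp (383 to 509), against 313.5 bp (296 to 343) for the 380 single peaks of II. The gap of 112.5 bp compared with 27 to 49 bp on the other autosomes, where run peaks had medians of 340.5 bp on IV, 342 bp on III, 344 bp on I and 360 bp on V. Median scores of run peaks were 162.21 (142.14 to 194.67) on II and 118.3 to 130.92 on the others, and the intervals of IV and V overlapped that of II while those of I and III lay below it. Single peaks of II had a median score of 110.28, close to the 104.1 to 110.68 of the other autosomes. Peaks of 1000 bp or more were 14.8% of run peaks on II and 8.68% of its single peaks. Of run peaks elsewhere they were 10.2% on IV, 11.3% on I and V and 12.2% on III, where they were 6.56% of single peaks. Among single peaks the median width of 313.5 bp on II lay within the 292 to 315 bp of the others. The width interval of run peaks on V, 331 to 388 bp, overlapped that of II, and that on III, 320 to 383 bp, just reached it. Broad peaks were 6.55 to 9.26% of the single peaks on the other autosomes.

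The longest run of II, in the centre 9807934 to 9825271, was made of 7 peaks, and 92.8% of its 17.3 kb was peak sequence. Its members had a median width of 1947 bp and scores from 59.4 to 2859.72, and 5 of them were 1000 bp or wider. It contained the second and the fifth widest peak of the chromosome, and the next peaks were 75.7 kb away on its left and 98.8 kb on its right. At the 500 bp limit it was the 1 run of 10 kb or more on II. The other autosomes had 4 on I, 3 on III, 2 on IV and 2 on V. Next in length was a right-arm run of 6 peaks over 7.62 kb, from 14324176 to 14331792, with a median width of 1018 bp and a highest score of 773.14. It lay 5.53 kb before the single peak at 14337320 that scored 3100, and other listed peaks lay between them. A run of 3 peaks from 10545521 to 10552984 spanned 7.46 kb, most of it taken by the peak of 5123 bp. Runs of 5 peaks lay at 3940562 to 3946579 (6.02 kb), 5334071 to 5339575 (5.505 kb) and 5073363 to 5076318 (2.96 kb). The left arm's richest run, at 693639 to 699100, had 6 peaks over 5.46 kb and a median score of 492.5.

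Run peaks were a smaller part of the right arm of II than of its left arm and centre. In the right arm 64 of 186 peaks, or 34.4% (27.6 to 41.7%), were in runs, against 47.3% (39.6 to 55.1%) in the left arm and 46.5% (40.9 to 52.2%) in the centre. Each of these intervals overlapped that of the right arm. Runs of 3 or more peaks held 19.4% of the right arm's peaks, close to the 20.1% of the left arm, and 25.6% of the centre's. Most right-arm peaks from 13817764 to 13829531 counted as single, since gaps of 529 to 883 bp set them apart. The right arms of the other autosomes had 37.4% on I, 39.2% on V, 47.6% on IV and 51.9% on III, so those of I and V were close to that of II. The median gap was 6.98 kb in the right arm, 4.59 kb in the left arm and 5.04 kb in the centre of II.

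Spacing on II had a wide range. The 670 gaps between neighbouring peaks ran from 1 bp to 272.3 kb with a median of 6.20 kb, against 5.41 kb on the other 4 autosomes. The upper quartile was 32.4 kb, against 25.4 kb, so the long gaps of II exceeded those of all but V, whose upper quartile was 33.6 kb. Gaps under 500 bp were 26.7% of all on II and 28.6% on the other 4 autosomes. Peaks at least 10 kb from both neighbours numbered 146, or 21.8% (18.7 to 25.1%), against 18.4% (17.1 to 19.7%), and these intervals overlapped. The share was 16.2% on IV, 18.2% on III, 18.9% on I and 20.7% on V. Only the interval of IV (14.1 to 18.6%) lay below that of II.

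**Figure D5:**
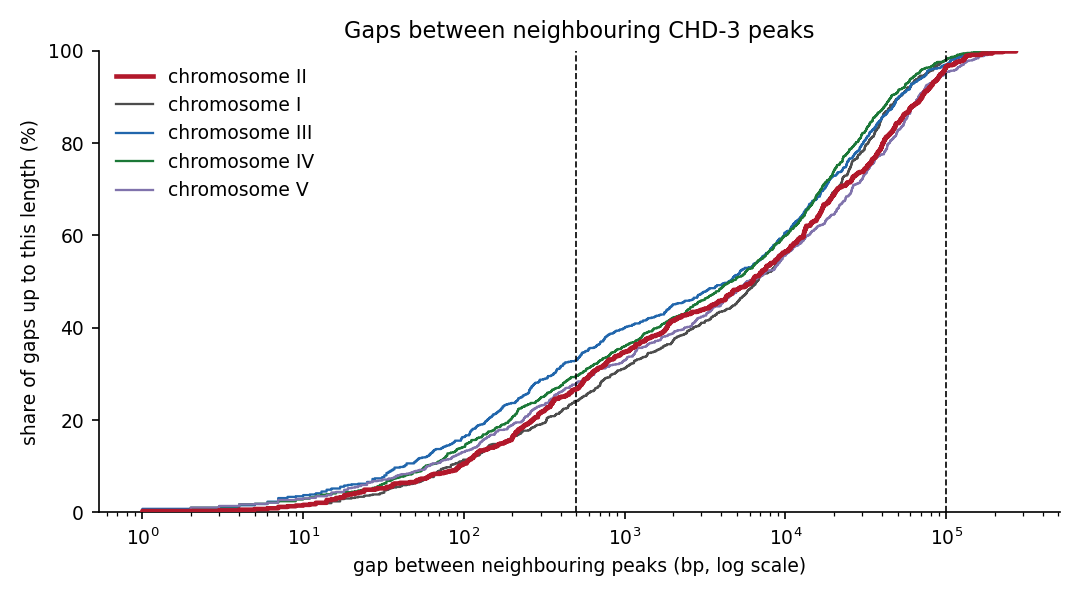
Share of gaps between neighbouring CHD-3 peaks (vertical axis, %) up to a given length in bp (horizontal log axis), with chromosome II as the thick red line and I, III, IV and V as thin lines; dashed lines mark 500 bp, the limit for runs, and 100 kb, the limit for empty stretches. At 500 bp II stands at 26.7%, between I and V, and above 20 kb its line runs close to that of V, to the right of I, III and IV.

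Empty stretches, gaps of 100 kb or more without a listed peak, numbered 24 on II and added up to 3.39 Mb or 22.3% of its span. The other autosomes had 14.2% on I, 16.2% on IV, 21.4% on III and 29.1% on V. The longest of II, from 10560087 to 10832418 in the centre, was 272.3 kb long and exceeded the longest of each of the other autosomes, which were 264.2 kb on I, 263.4 kb on V, 212.1 kb on III and 179.997 kb on IV. The next were 4701919 to 4926917 (224.999 kb, centre), 244927 to 439517 (194.6 kb, left arm), 6589303 to 6782749 (193.4 kb, centre) and 3602664 to 3769639 (166.98 kb, left arm). By midpoint 13 of the 24 lay in the centre, 7 in the left arm and 4 in the right arm, which made 25.8%, 25.7% and 12.1% of the length of these parts. The right arm of II thus had both fewer peaks in runs and less sequence in empty stretches than its left arm and centre. In the other right arms empty stretches made 7.40% of the length on I, 9.75% on IV, 18.7% on III and 21.9% on V. The stretch from 11307752 to 11440917, counted as central, crosses the border of the right arm.

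The longest empty stretch lay between strong peaks. On its left it was bordered by a run of 3 peaks from 10556528 to 10560086, which ended in a peak of 1536 bp with a score of 705.12. The peak of 5123 bp scored 3100 ended 7.1 kb before the border. On its right came a single peak of 1469 bp, from 10832419 to 10833887, with a score of 1965.5. The stretch from 8292839 to 8423644 (130.8 kb) began at the edge of the 4514 bp peak scored 3100 and ended at a peak of 220 bp scored 50.95. A peak of 1000 bp or more bordered 3 of the 24 stretches, and such peaks were 4 of the 48 bordering peaks, or 8.33%, against 11.6% of the other peaks of II. The 48 peaks that bordered the empty stretches of II had a median width of 309 bp (255 to 392) and a median score of 114.3, against 358 bp (332 to 390) and 129.62 for the other 623. Of the bordering peaks 12 of 48 were in runs, against 44.8% of the others. On I, III, IV and V it was 20.0%, 26.1%, 11.1% and 21.95% of the bordering peaks, against 39.5%, 52.3%, 47.4% and 46.97% of the others. A peak beside an empty stretch can have a close neighbour on 1 side only, which lowers that share by construction.

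The ends of the listed span differed. The first peak, at base 1 to 455, scored 1598.16 and was 15.8 kb from the next, which was 1091 bp wide with a score of 472.25. The last peak, from 15193851 to 15194190, was 340 bp wide with a score of 83.79. The distance from it to the end of the chromosome was not analysed here.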

How the data were processed

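The authors' peak list of the CHD-3 ChIP sample was read as deposited. Per the file headers and the source column, peaks were called by MACS on WormBase WS220; per the submitters' processing notes, BWA and the build ce10 were used. The sources used here do not give versions, calling threshold, control or pooling. Peak positions count from 1. Peaks carry a deposited score without a named scale (lowest 50, highest 3174.44, 111 peaks tied at 3100), used only within this list. Read depth is unknown.

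A chromosome span starts at base 1 and ends where the last peak ends. Width is last minus first base plus 1, a gap is the bases between neighbours, and a midpoint places a peak in an arm or the centre. Shares have 95% exact (Clopper-Pearson) intervals and medians 95% binomial order-statistic intervals. Peaks of 1 list are not replicates, so no test was run. Peaks named were the 10 highest scores, 5 widest, 3 highest per region, 5 largest and 5 longest runs, 5 longest gaps, 3 fullest and 3 emptiest full bins (a tie gave 1 more) and both end peaks. Members and lists were chosen with earlier results of these data known. Gene positions at hand are of another assembly (WBcel235), so no gene or sequence was assigned to a peak. Run, gap and interval code was tested on simulated data with Python 3.11.15, numpy 2.4.6 and scipy 1.17.1.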

Additional observations from a re-analysis of the deposited data

How the results depend on the processing

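No paired analysis was possible because only the ChIP sample has a peak list. No value was tested, so an alternative was compared with the 95% interval of the value reported, and a count with 1.5 times itself. Of 59 alternatives 31 stayed within these limits. Leaving out the last 200 kb, chosen after seeing the data, kept both values it was tried on within them.
Keeping the 50% of highest-scoring peaks leaves fewer by construction. There, II had 23.6 peaks per Mb, a median width of 587 bp, a median score of 266.9 and 21.2% broad peaks. Of its peaks 37.05% were in runs, above the 34.5% of the other 4 autosomes, where all peaks gave 43.4% against 45.01%. Its 42 empty stretches were rank 4 in number among the 5 autosomes, where all peaks gave rank 2. Left arm, centre and right arm then had medians of 572, 612 and 558 bp and of 314.4, 240.02 and 274.9 in score. The left arm was then second in score among the 5 autosomes and not the highest, and the centre of II lay below the 241.9 of the other 4 autosomes.
Merging peaks less than 500 bp apart gave 32.4 regions per Mb, a median of 399 bp and 24.0% broad, with 399 bp in the left arm and 439 bp in the centre. The median width of II was then second among the 5 autosomes and not the highest. Its median score stayed the highest in all 4 settings, and only V was sparser in all 5 settings of the density.
With broad peaks taken from 500 bp the share was 33.98%, and from 2000 bp it was 2.38%, where III and V lay above II. Arms as the outer 33.3% gave 30.3%, 33.98% and 35.8% of peaks in left arm, centre and right arm, against 36.04%, 29.7% and 34.3% on the other 4 autosomes. There, the left arm share of II was the lowest and the centre share the highest of the 5. This was not so with arms of 25%, and the cause was not tested. As these parts are of equal length, the left arm of II was then sparser than its centre. With arms of 25% it was denser than the centre, so this order depends on the border. Boundaries at 5 and 12 Mb gave 30.3% in the left arm, 46.1% in the centre and 23.7% in the right arm. These parts differ in length, since the left arm then covers 5 Mb and the right arm only 12 to 15.19 Mb. The shares are thus not densities. A run gap under 250 bp gave 32.8% of peaks in runs and one under 1000 bp gave 53.7%. Empty stretches of 50 kb or more numbered 105, and of 200 kb or more 2. Depth could not be examined.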
